A study of Homo sapiens with 6 samples.

Results

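The granins and neuroendocrine secretory granule genes are 10 genes chosen by name: SCG2, CHGA, CHGB, SCG3, SCG5, VGF, PCSK1, PCSK2, CPE and NPY. The choice was made with the difference between the groups already known for some of them, so their levels and differences are given here as a description, with no p-value and nothing read from how many pass a threshold. Of the 10 genes, 8 had a probe set that carries their symbol, each of them 1 probe set, among 14883 genes with a symbol in the series. The expression of PCSK1 and PCSK2, which encode prohormone convertases, was not analysed here.

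The cells were SK-N-BE(2), an established human neuroblastoma line, infected with a lentivirus that carried a hairpin against BRG1 (shBRG1, 3 samples) or a non-silencing control (NSC, 3 samples). BRG1 drives the SWI/SNF complex, a chromatin remodeller, with its ATPase activity, and the study asked how cell viability, death and survival pathways depend on it. Both groups were pLKO lentivirus infections of the same line, and RNA was taken 48 h later and hybridised to 1 Affymetrix array per sample. The samples are triplicates that are not described as separate cultures, so p-values reflect sample-to-sample spread that may be technical. A single line and a single time point were studied, and the depletion of BRG1 itself was not analysed here.

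Neuroendocrine cells store peptides, amines and their processing enzymes in dense-core secretory granules and release them on a calcium signal. Granins are acidic proteins that aggregate in the trans-Golgi network, help granules to form and are cut into smaller peptides. Convertases cut prohormones after pairs of basic residues, a carboxypeptidase trims the ends, and the peptides leave the cell by regulated exocytosis. Neuroblastoma arises from the sympathoadrenal lineage, in which granins are common tissue markers, and granin genes are known targets of the cAMP-responsive factor CREB and of the neuronal repressor REST.

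The values are log2 expression per probe set, and array medians lay between 3.77 and 3.84 over 52299 probe sets. As a measure of background, 86 olfactory receptor and keratin-associated protein genes, which are mostly silent outside the nose and hair, had a median level of 2.93 and a 95th percentile of 5.73. All 10 measured sympathetic markers, among them PHOX2A, HAND2, DBH and TH, lay above 5.73 on all 6 arrays, as the label of the cells requires, and 0 of 5 measured Schwann cell markers did on any array. The summed log2 level of the 10 sympathetic markers was 94.9 to 95.3 in shBRG1 and 96.4 to 96.7 in NSC. Their differences split into 5 below 0 and 5 above, with a median of -0.01 and a range from -0.59 to 0.21. The sum of the 5 Schwann markers was 19.4 to 19.6 in shBRG1 and 20.6 to 20.9 in NSC, and that of 7 mesenchymal markers 47.0 to 48.0 in shBRG1 and 44.9 to 45.9 in NSC. Of these 7, 4 lay above 5.73 on all arrays, FN1 had the largest difference (1.44) with NSC values below 5.73, and SNAI2 was lower (-0.47). The part of these shifts in the results below was not tested. In such bulk RNA, fewer cells that express a gene and less of its RNA per cell cannot be told apart.

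RefSeq promoter windows, from 250 bases before to 50 after an annotated start site, were used for 7 of the 10 genes and number 9 in all. SCG2, CHGA and CHGB, the genes lower in shBRG1 without overlap, are not among the 7. The motif counts below therefore do not cover them. The windows of SCG3, SCG5 and VGF are printed because SCG3 and SCG5 were the granin genes higher in shBRG1 and VGF had overlapping groups. Capitals mark matches on either strand to the core of the cAMP response element (TGACG), the TATA box (TATAAA) or parts of the REST-binding element RE1 (TTCAGCA and GGACAGC).
SCG3 promoter, GRCh38.p14 chr15:51681253-51681552, plus strand: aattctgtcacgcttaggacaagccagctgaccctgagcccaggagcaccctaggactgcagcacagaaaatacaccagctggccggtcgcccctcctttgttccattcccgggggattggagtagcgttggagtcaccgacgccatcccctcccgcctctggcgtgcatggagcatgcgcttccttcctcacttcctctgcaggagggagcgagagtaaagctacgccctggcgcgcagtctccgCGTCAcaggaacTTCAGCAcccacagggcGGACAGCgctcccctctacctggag
SCG5 promoter, GRCh38.p14 chr15:32641460-32641759, plus strand: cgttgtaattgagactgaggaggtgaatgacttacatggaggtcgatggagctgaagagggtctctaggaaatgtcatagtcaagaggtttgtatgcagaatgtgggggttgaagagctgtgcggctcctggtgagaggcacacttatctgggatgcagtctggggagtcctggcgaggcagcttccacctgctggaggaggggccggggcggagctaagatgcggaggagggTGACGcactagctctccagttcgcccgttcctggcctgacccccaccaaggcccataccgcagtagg
VGF promoter, GRCh38.p14 chr7:101165520-101165819, minus strand: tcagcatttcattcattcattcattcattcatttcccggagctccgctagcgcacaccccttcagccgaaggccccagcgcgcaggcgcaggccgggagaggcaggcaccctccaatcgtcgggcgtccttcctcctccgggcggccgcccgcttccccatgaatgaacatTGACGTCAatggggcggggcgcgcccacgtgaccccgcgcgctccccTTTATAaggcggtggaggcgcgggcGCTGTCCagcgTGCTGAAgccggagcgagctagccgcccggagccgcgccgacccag
The cAMP response element core was present in 7 of the 9 windows, those of NPY and 1 of PCSK1 excepted, against 24.6% of all 35116 promoter windows. The full palindrome TGACGTCA, in which 2 cores overlap, was present in VGF (bases -79 to -72 from the start site) and PCSK1 (-77 to -70), against 1.85% of all windows. Both RE1 parts on 1 strand were present in SCG3 (bases 9 to 15 and 26 to 32) and VGF (-7 to -1 and 5 to 11), against 0.168% of all windows. The search set no limit on the order of the parts or the distance between them, and this distance differed between SCG3 and VGF. The letters TATAAA were present in VGF, on the strand opposite to the gene, and in 1 of 2 windows of PCSK1, on the same strand. On either strand 11.5% of all windows had them. The full palindrome and the RE1 parts were searched after the data had been seen. A match is a description of letters, and binding was not measured.

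**Figure D1:**
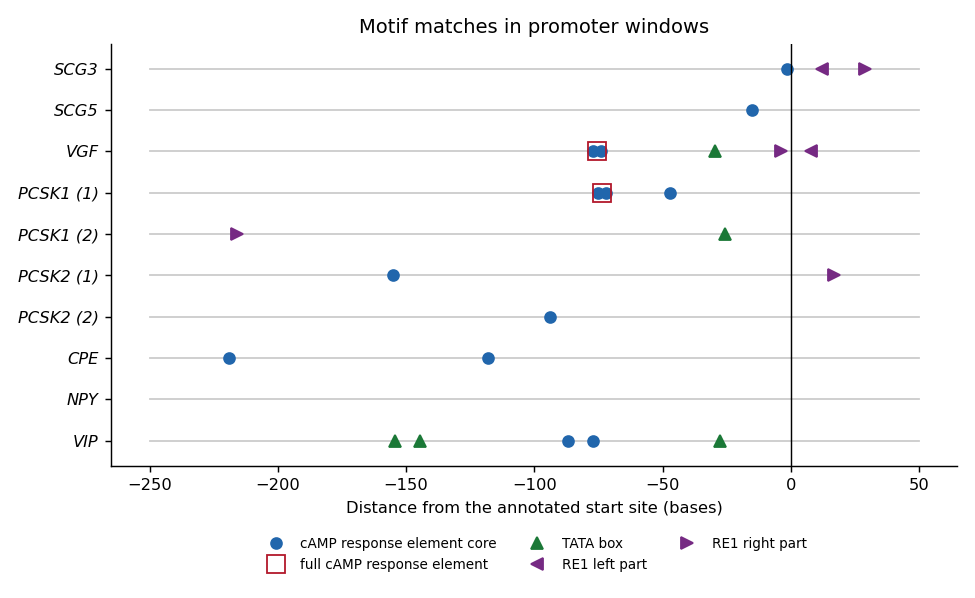
Matches to 5 motifs in the RefSeq promoter windows of 7 secretory granule genes and of VIP, by distance from the annotated start site in bases. Numbers in brackets separate the windows of genes that have several. The full cAMP response element is present in VGF and 1 window of PCSK1, and NPY has no match.

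The differences of the granins had both signs, with SCG2, CHGA and CHGB lower in shBRG1 and SCG3 and SCG5 higher. Of these differences that of SCG3 was the smallest (0.15). SCG2 encodes secretogranin II, the precursor of the neuropeptide secretoneurin. It was at a log2 level of 8.34, 8.28 and 8.36 in shBRG1, against 9.93, 9.96 and 10.04 in NSC. The groups lay far apart, with the highest shBRG1 value more than 1 log2 unit below the lowest NSC value. The difference of means was -1.65 (SE 0.07), or 3.13-fold lower, with 8.33 ± 0.04 in shBRG1 and 9.98 ± 0.06 in NSC (SD, n = 3).

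CHGA encodes chromogranin A, the precursor of vasostatin and catestatin and a driver of granule formation. Its log2 level was 10.36, 10.31 and 10.33 in shBRG1, against 10.84, 10.80 and 10.82 in NSC. The replicates of a group lay close together and the groups did not overlap. The difference was -0.48 (SE 0.06), or 1.40-fold lower in shBRG1. CHGB encodes chromogranin B, a granule matrix protein that is cut into several peptides. On the log2 scale it was at 9.11, 9.18 and 9.04 in shBRG1, against 9.41, 9.38 and 9.45 in NSC. All 3 shBRG1 values were again below the NSC values, by less than for CHGA, with a difference of -0.30 (SE 0.07), or 1.23-fold lower.

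SCG3 encodes secretogranin III, which binds chromogranin A and cholesterol-rich granule membranes. Its log2 level was 9.82, 9.84 and 9.85 in shBRG1, against 9.66, 9.75 and 9.66 in NSC. The groups did not overlap, but the gap was small, and the difference was 0.15 (SE 0.06), or 1.11-fold higher in shBRG1. After cyclic loess scaling it was 0.09. SCG5 encodes 7B2, the chaperone of the convertase PC2. SCG5 was at a log2 level of 6.18, 6.46 and 6.32 in shBRG1, against 5.99, 5.98 and 6.12 in NSC. All 3 shBRG1 values were above the NSC values, the difference was 0.29 (SE 0.09), or 1.22-fold higher, and all 6 values lay less than 1 log2 unit above the 95th percentile of the background genes. The reference annotation also holds a readthrough transcript of ARHGAP11A and SCG5, and signal from it could not be separated. VGF encodes a nerve growth factor-inducible granule protein that is cut into bioactive peptides. Its log2 level was 8.54, 8.48 and 8.51 in shBRG1, against 8.55, 8.58 and 8.50 in NSC, so the groups overlapped, with a difference of -0.04 (SE 0.06).

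**Figure D2:**
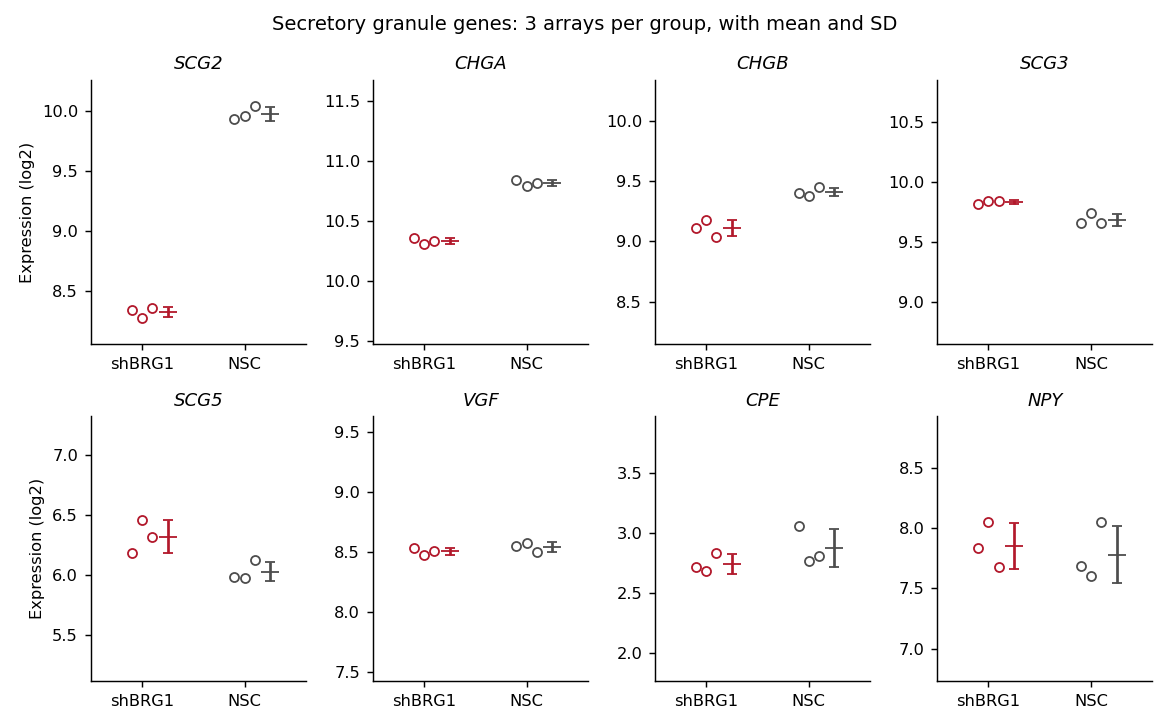
Log2 expression of 8 secretory granule genes on each array (open circles), with the mean and SD of 3 arrays beside them; every panel spans the same range of log2 units. SCG2, CHGA and CHGB are lower in shBRG1 without overlap, SCG3 and SCG5 are higher without overlap, and VGF, CPE and NPY overlap.

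CPE encodes carboxypeptidase E, which removes the basic residues that convertases leave on peptides. The log2 level of CPE was 2.71, 2.68 and 2.83 in shBRG1, against 3.06, 2.77 and 2.80 in NSC. These values lay around the median of the background genes and below their 95th percentile on all 6 arrays, so the difference of -0.14 (SE 0.10) may be that of background. NPY encodes neuropeptide Y, a co-transmitter of sympathetic neurons. NPY was at a log2 level of 7.83, 8.05 and 7.68 in shBRG1, against 7.68, 7.61 and 8.06 in NSC. The groups overlapped widely and 1 array of each stood above the other arrays of its group. The difference was 0.07 (SE 0.14), and it was -0.03 without shBRG1 replicate 2, -0.02 without NSC replicate 2 and 0.21 without NSC replicate 3.

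Over the 8 genes, 5 had groups that did not overlap, 3 of them lower and 2 higher in shBRG1. Over all genes, groups did not overlap for 35.5%, with 15.3% lower and 20.3% higher. In the limma fit 17.0% of all genes passed an adjusted p of 0.05, 7.19% lower and 9.78% higher. Of the 8 genes 3 passed, all of them lower in shBRG1. That count was 2 when any array but shBRG1 replicate 2 was left out and with the replicate block, 5 with trend and robust options and 4 of 7 without dim genes. As the genes were chosen with this contrast in view, nothing is read from these counts. Without shBRG1 replicate 1, 2 or 3 the calls over all genes numbered 1633, 1662 and 1604 in place of 2525, and cyclic loess gave 1212 higher and 1329 lower in place of 1455 and 1070. The median difference of the 8 genes was -0.09, against 0.01 over all genes, and it ranged from -0.11 to -0.04 over fits that left out 1 array. It describes the genes poorly, since their differences ran from -1.65 to 0.29. Over 13 alternatives SCG2 stayed between -1.71 and -1.62, CHGA between -0.54 and -0.47 and CHGB between -0.37 and -0.27.

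**Figure D3:**
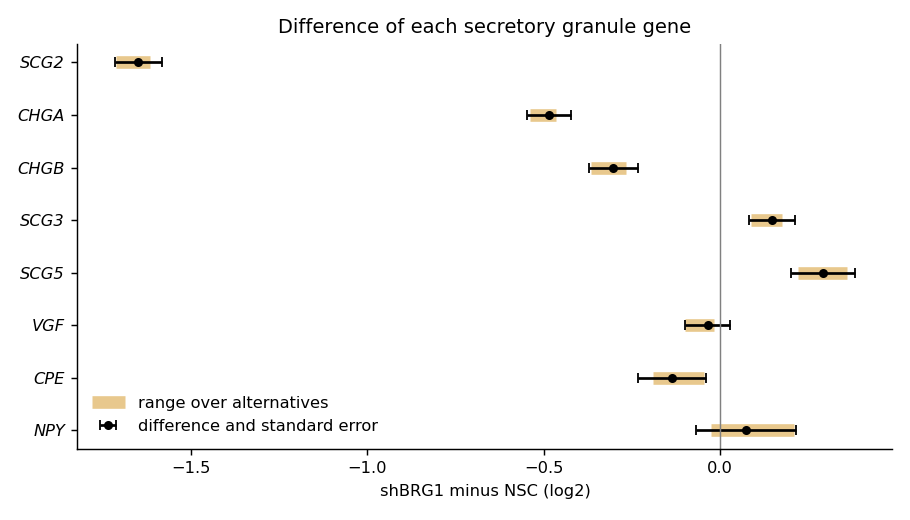
Difference of means, shBRG1 minus NSC, for 8 secretory granule genes on the log2 scale, with the standard error of the fit over all genes (bars) and the range over the alternative settings (shaded). SCG2 lies at -1.65, apart from the other 7 genes, which lie between -0.48 and 0.29.

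The genes next to them on the chromosomes were compared as well. For each of the 8 genes, the nearest measured protein-coding gene on either side in the GRCh38.p14 gene table was taken, a comparison added after the data had been seen. Of these 16 neighbours 1 passed the threshold, which 17.0% of all genes passed. The count depended on the setting, with 5 past it after cyclic loess, 6 with trend and robust options and 4 of 12 without dim genes. GREM1, beside SCG5 (-0.44, adjusted p = 0.0584), and TRIM56, beside VGF (-0.42, adjusted p = 0.0519), were among those that passed under all 3 of these settings (0.0224 to 0.156 and 0.0157 to 0.147 over the alternatives). MSMO1 (-0.19, adjusted p = 0.0973) and ARHGAP11A (-0.17, adjusted p = 0.151) passed under 3 alternatives and 1 alternative. The neighbours of SCG2 had changes of -0.04 (MOGAT1, adjusted p = 0.731 in limma) and 0.14 (WDFY1, adjusted p = 0.192). Those of CHGA had changes of -0.18 (GOLGA5, adjusted p = 0.161) and 0.09 (ITPK1, adjusted p = 0.445), and GOLGA5 passed after cyclic loess and with trend and robust options (adjusted p 0.0394 to 0.359 over the alternatives). OSBPL3, an oxysterol-binding protein gene beside NPY, fell by 0.66 on the log2 scale (SE 0.06, adjusted p = 0.000952).

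The 5 genes whose profile over the 6 arrays, relative to the NSC mean, lay closest to that of SCG2 among 14882 genes were RPN2, NES, LYPLA1, PM20D2 and CENPN. Their Euclidean distances were 0.0951, 0.122, 0.189, 0.326 and 0.341 log2 units. Their differences ran from -1.68 (PM20D2) to -1.54 (CENPN). RPN2, a subunit of the oligosaccharyltransferase of the endoplasmic reticulum, was closest, at 9.03 in shBRG1 and 10.67 in NSC. These genes were picked for this likeness and carry no test.

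Beyond the 8 genes, 7 lists of other genes of regulated secretion held 223 genes, of which 172 were measured. In the limma fit 15 of the 172 rose, 22 fell and 135 did not pass, so 21.5% were called beside 17.0% of all genes. Their median change was -0.03, against 0.01 over all genes. Without shBRG1 replicate 3 the calls numbered 22 in place of 37, and the lower ones 12. The lower calls numbered 13 without shBRG1 replicate 1 and 14 without NSC replicate 3.

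**Figure D4:**
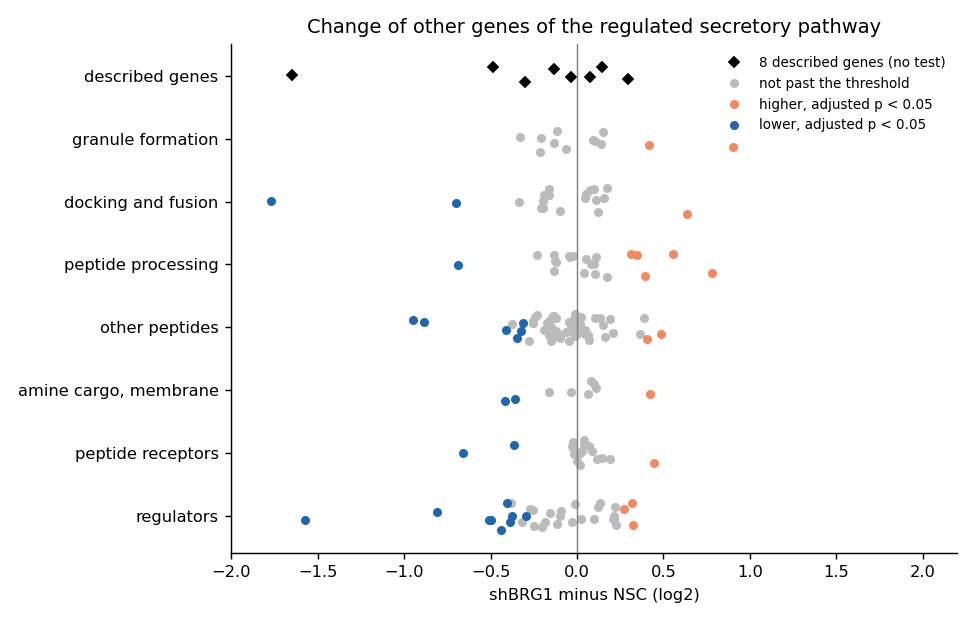
Change of each measured gene, shBRG1 minus NSC on the log2 scale, in 7 lists of genes of the regulated secretory pathway, with the 8 described genes on top. Colours mark genes past an adjusted p of 0.05 in the limma fit; in every list most genes lie within 0.5 of 0, and VAMP3 and EGR1 are the lowest points of the 7 lists.

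Among precursors of other granule peptides, VIP and GAL had the largest changes. VIP encodes vasoactive intestinal peptide, a neuropeptide that signals through cAMP. Its log2 level was 9.75, 9.76 and 9.69 in shBRG1, against 10.71, 10.65 and 10.69 in NSC, without overlap, and the change was -0.95 (SE 0.06, adjusted p = 0.000287). GAL encodes galanin, and its log2 level was 10.23, 10.34 and 10.36 in shBRG1, against 11.15, 11.13 and 11.30 in NSC. All shBRG1 values were lower, with a change of -0.88 (SE 0.08, adjusted p = 0.000649). Both fell under all 13 alternatives.

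In all, 6 of 59 measured peptide precursors fell, 2 rose and 51 did not pass, with a median of -0.05. The called share was 13.6%, below the 17.0% of all genes. CRH, which encodes corticotropin-releasing hormone, had a change of -0.35 (adjusted p = 0.0168), a call lost without shBRG1 replicate 1 or 3 or NSC replicate 2 or 3 (0.000722 to 0.0629 over the alternatives). SPX, the spexin precursor, was dim, at 3.65 to 3.70 in shBRG1 and 3.90 to 4.13 in NSC, below the 95th percentile of the background genes. Its call (adjusted p = 0.0287) was lost on leaving out any array but NSC replicate 3, as with the trend and robust fit (0.0271 to 0.0891 in all). ADCYAP1, the precursor of PACAP, a peptide of the same family as VIP, rose by 0.40 (SE 0.07, adjusted p = 0.0103), with 7.15, 7.13 and 7.05 in shBRG1 against 6.74, 6.77 and 6.61 in NSC. EDN1, the endothelin-1 precursor, rose by 0.48 (adjusted p = 0.0166) at levels below the 95th percentile of the background genes, and lost its call without shBRG1 replicate 1 or 3 (0.0118 to 0.0601 over the alternatives).

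Of 18 measured receptors of granule peptides, 2 fell, 1 rose and 15 did not pass, so that 16.7% were called beside 17.0% of all genes. NPY2R, a receptor of neuropeptide Y, was at 7.63, 7.83 and 7.73 in shBRG1, against 8.50, 8.28 and 8.39 in NSC. It fell by 0.66 on the log2 scale (SE 0.09, adjusted p = 0.00292), while NPY itself had overlapping groups. The other receptors of neuropeptide Y, NPY1R, NPY4R and NPY5R, looked up after the values were seen, lay between 2.16 and 2.85 on all arrays, in the range of the background genes. ADCYAP1R1, a receptor of PACAP, rose by 0.45 (SE 0.08, adjusted p = 0.0115), with 7.16 to 7.43 in shBRG1 and 6.81 to 6.88 in NSC. The RNAs of the peptide precursor and of its receptor were thus both higher. SSTR2, a somatostatin receptor, fell by 0.37 (adjusted p = 0.0266), a call lost on leaving out any array but shBRG1 replicate 2 (range 0.00708 to 0.0827).

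Of 21 measured enzymes and inhibitors of peptide processing, 5 rose, 1 fell and 15 did not pass, with a median of 0.05. The called share was 28.6%, beside 17.0% of all genes. FURIN, the convertase of the trans-Golgi network, was at 6.45, 6.52 and 6.39 in shBRG1, against 5.91, 5.53 and 5.59 in NSC. All shBRG1 values were higher, with a change of 0.78 (SE 0.11, adjusted p = 0.00376), and 2 of the 3 NSC values lay below the 95th percentile of the background genes. PCSK7, another convertase of the same family, rose by 0.39 (SE 0.06, adjusted p = 0.00652). PAM, which amidates the ends of many neuropeptides, rose by 0.31 (adjusted p = 0.0246), and QPCTL, a Golgi glutaminyl cyclase, by 0.56 (adjusted p = 0.0148). Both lost their calls without shBRG1 replicate 2 or 3 or NSC replicate 1 or 2 (PAM 0.00536 to 0.0838 and QPCTL 0.00203 to 0.0555 over the alternatives). The lysosomal protease gene CTSB rose by 0.35 (adjusted p = 0.0111). ECE1, which cuts big endothelin, was the 1 that fell, by 0.69 on the log2 scale (SE 0.08, adjusted p = 0.00204). PCSK1N, which encodes an inhibitor of the convertase PC1/3, had a change of 0.04 (adjusted p = 0.832).

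Among 12 measured genes of granule formation and transport, 2 rose and 10 did not pass, so that 16.7% were called beside 17.0% of all genes. SYT4, a synaptotagmin of immature granules, was at 9.61, 9.55 and 9.54 in shBRG1, against 8.73, 8.65 and 8.60 in NSC. It rose by 0.90 (SE 0.07, adjusted p = 0.00041), the largest rise in the 7 lists. PICK1, a membrane-shaping protein of budding granules, lay between 4.94 and 5.52 on the 6 arrays, below the 95th percentile of the background genes. It rose by 0.42 (adjusted p = 0.0116), a call lost with the mean of its probe sets (0.20), with adjusted p between 0.00245 and 0.0595 over the alternatives.

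Of 19 genes of docking, priming and fusion, 2 fell, 1 rose and 16 did not pass, so that 15.8% were called beside 17.0% of all genes. VAMP3, a SNARE of recycling vesicles, was at 7.01, 7.32 and 7.15 in shBRG1, against 8.95, 8.92 and 8.92 in NSC, the largest fall in the 7 lists (-1.77, SE 0.09, adjusted p = 0.000152). NSF, the ATPase that takes SNARE complexes apart, fell by 0.70 on the log2 scale (SE 0.09, adjusted p = 0.00223). CADPS, a priming factor for dense-core granules, was at 7.08, 6.97 and 7.10 in shBRG1, against 6.54, 6.21 and 6.50 in NSC, and rose by 0.64 (SE 0.10, adjusted p = 0.00573). Fusion genes thus included changes of opposite sign, each without overlap between the groups.

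**Figure D5:**
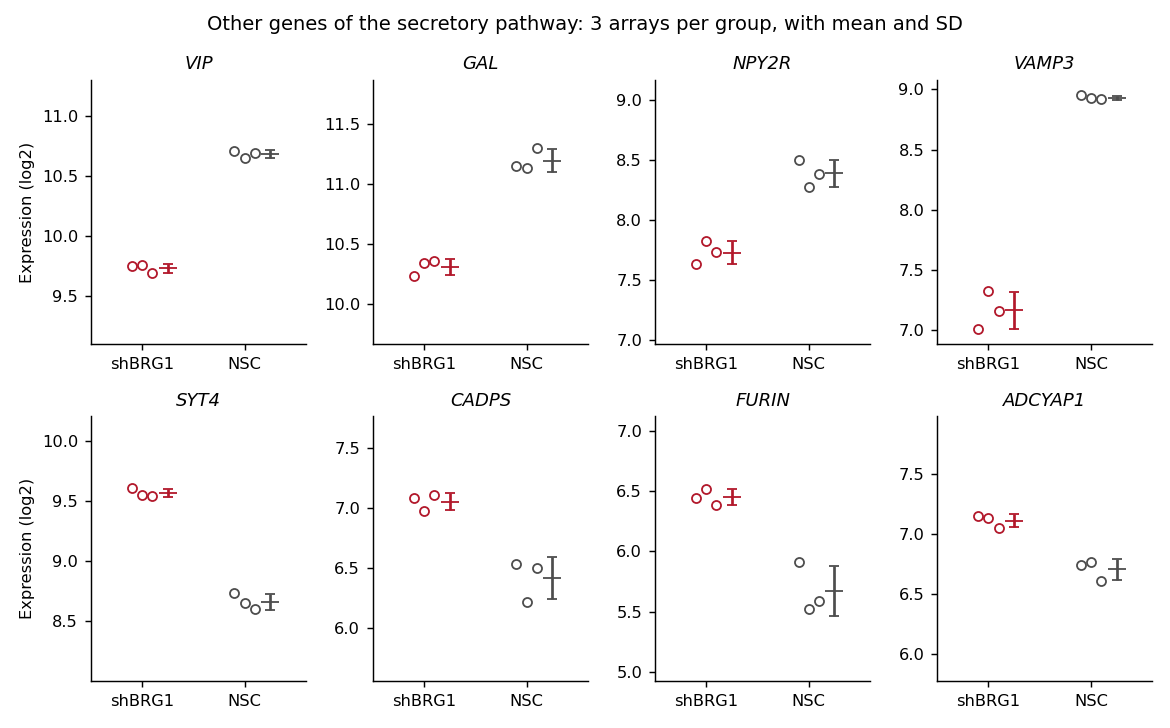
Log2 expression of 8 other genes of the secretory pathway on each array (open circles), with the mean and SD of 3 arrays beside them; every panel spans the same range of log2 units. VIP, GAL, NPY2R and VAMP3 are lower in shBRG1 and SYT4, CADPS, FURIN and ADCYAP1 higher, all without overlap.

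Of 9 measured genes of catecholamine cargo and the vesicle membrane, 2 fell, 1 rose and 6 did not pass. The called share was 33.3%, beside 17.0% of all genes. SV2A, a vesicle glycoprotein, rose by 0.42 (SE 0.07, adjusted p = 0.00712). CYB561, which carries electrons into granules for the enzymes DBH and PAM, had a change of -0.42 (adjusted p = 0.0163), a call lost without shBRG1 replicate 1 or 3 or NSC replicate 2 or 3 (0.000384 to 0.0562 over the alternatives). SYP, a vesicle membrane protein, fell by 0.36 (adjusted p = 0.0304) and lost its call on leaving out any array but shBRG1 replicate 2 (range 0.00411 to 0.0856). DBH, the granule enzyme that makes noradrenaline, was at 11.07, 11.03 and 11.03 in shBRG1, against 10.88, 10.97 and 11.04 in NSC, and its change was 0.08 (adjusted p = 0.496).

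Of 34 measured regulators of neuroendocrine genes, 9 fell, 3 rose and 22 did not pass, with a median of -0.14. The called share was 35.3%, beside 17.0% of all genes. REST, the repressor of neuronal genes, was at 4.38 to 4.65 in shBRG1 and 4.50 to 4.85 in NSC, below the 95th percentile of the background genes, with a change of -0.16 (SE 0.11, adjusted p = 0.417). RCOR1, which encodes its corepressor CoREST, was at 8.14, 8.31 and 8.34 in shBRG1, against 9.16, 9.04 and 9.02 in NSC, and fell by 0.81 on the log2 scale (SE 0.08, adjusted p = 0.00122). HDAC2 (0.32, adjusted p = 0.0217), EHMT2 (0.32, adjusted p = 0.0244) and KDM1A (0.27, adjusted p = 0.0295), histone-modifying enzymes known to act with REST, rose. HDAC2 lost its call without shBRG1 replicate 1 or 2 or NSC replicate 2 or 3, and with the mean of its probe sets (0.16). EHMT2 lost its call on leaving out any array but shBRG1 replicate 1, and KDM1A after cyclic loess and whichever array was left out. Over the alternatives, adjusted p ranged from 0.00458 to 0.145 for HDAC2, from 0.00535 to 0.0733 for EHMT2 and from 0.000509 to 0.0973 for KDM1A.

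EGR1, an immediate early transcription factor, fell by 1.57 on the log2 scale (SE 0.11, adjusted p = 0.000345), with 6.78, 7.05 and 7.04 in shBRG1 against 8.61, 8.65 and 8.33 in NSC. The lineage factors PHOX2A (-0.51, adjusted p = 0.00335) and GATA2 (-0.50, adjusted p = 0.00673) fell too. Of other lineage factors, looked up after the values were seen, ISL1 (-0.44) and HAND2 (-0.38) fell (adjusted p = 0.00859 for both). HAND1 (-0.32, adjusted p = 0.0589) and GATA3 (0.21, adjusted p = 0.0677) did not pass. The HAND1 values were lower in shBRG1 and the GATA3 values higher, both without overlap. INSM1, a zinc finger factor of neuroendocrine differentiation, had a change of -0.38 (SE 0.14, adjusted p = 0.106) at levels below the 95th percentile of the background genes. Its groups did not overlap either.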

How the data were processed

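From each of the 6 samples, 200 ng of total RNA went onto 1 single-colour Affymetrix array. What the authors deposited is a log2 value for each probe set and array, and the submitters' processing notes name RMA, oligo 1.27, limma 3.19 and R 3.1.0. RMA sets arrays to a common distribution, which hides a shift common to every gene and can shrink the changes of dim probe sets. Scanner files and detection calls were not used here, and no build for the probes is given in the sources used here. Precision is limited by the number of arrays, 3 a group.

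A platform annotation gave 15828 of 52299 probe sets 1 gene symbol, 0 several and 36471 none. All 15828 were updated through gene identifiers of the GRCh38.p14 table, and the brightest probe set by mean of 6 arrays was kept, for 14883 genes. Genes were fitted in R 4.3.3 with limma 3.58.1, using lmFit and eBayes without covariates (two-sided), with Benjamini-Hochberg adjustment over all genes and a threshold of 0.05. With 3 arrays a group, exact permutation p-values have a floor of 0.1.

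The members, lists, tests and alternatives were chosen with earlier results of these data known. Named were all measured members, in each list every called gene of a direction with 5 or fewer and otherwise the 4 with the smallest p, and REST, INSM1, PTPRN, PAM, PCSK1N, SLC18A1, SLC18A2, DBH, CADPS, GAL and VIP. PTPRN, SLC18A1 and SLC18A2 were not analysed here. Alternatives were median centring, cyclic loess, no dim genes, averaged probe sets, trend and robust options, array weights, the replicate number as a block, each array left out, every probe set, and an adjusted p of 0.01. The fit was tested on simulated data. Promoter windows are from RefSeq (GRCh38.p14). That of CHGA is not reported here. Python 3.11.15 and matplotlib 3.10.9 drew the figures.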

Additional observations from a re-analysis of the deposited data

How the results depend on the processing

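The number of genes called over all 14883 was 2525 and moved to 1086 at an adjusted p of 0.01 (563 higher, 523 lower) and to 1604 to 1840 with 1 array left out (840 to 1055 higher, 694 to 859 lower). The 37 calls among the other secretory pathway genes moved to 17 at 0.01 (5 higher, 12 lower) and to 22 to 30 with 1 array left out (10 to 13 higher, 12 to 20 lower). Fewer arrays were fitted there. Deviations from the group means of arrays with the same replicate number correlated at -0.04, -0.14 and -0.03, so the numbers were not taken to pair the samples. With the replicate number as a block 1608 genes were called (870 higher), and 23 of the other secretory pathway genes (13 lower), and CTSB, PAM, CRH, SPX, SYP, SSTR2, HDAC2, EHMT2 and KDM1A were among those no longer past the threshold. The median difference of the 8 described genes was -0.035 with dim genes left out, which drops CPE, and ranged from -0.114 to -0.039 with 1 array left out. SCG2, CHGA, CHGB, SCG3, SCG5, VGF and, where it was fitted, CPE kept the sign of their difference under all alternatives run, and NPY did not. No detection calls or probe-level signals were used, so values near the background genes (CPE, SPX, EDN1, PICK1, REST and INSM1, and FURIN in NSC) have no firm lower limit.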
